A study of Mus musculus with 33 samples.

Results

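A set of 7 genes of feedback control downstream of growth factor receptors were followed through birth in mouse lung and liver: Dusp1, Errfi1, Zfp36, Ier3, Phlda1, Socs3 and Hbegf. Every probe set annotated to 1 of these 7 symbols was taken, which gave 9 probe sets of the 12422 on the array that were not controls. They stand for 7 of the 8251 genes that the annotation names by a single symbol. Errfi1 and Socs3 each have 2 probe sets, and the brighter over all arrays is used as the main one.

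Whole organs were profiled on 33 chips (Affymetrix MGU74Av2), 3 for each of 11 groups, all from mice of the C57B/6J strain per the study's methods (C57/BL or C57/Black in those labels that give one). In room air (21% oxygen), fetal lungs and livers were from day 21 of gestation (F21), newborn lungs from 2, 6, 12 and 24 h of age and newborn livers from 2 and 6 h. In 10% oxygen, F21 lungs came from dams held there for 12 h, and newborn lungs were taken at 2 and 6 h after birth into it. All values below are MAS5 signals, which the authors scaled to a target intensity of 100 on each chip, and differences are on the log2 scale with signals under 10 set to 10. Nothing in the sources used here says which animals shared a dam, so that p-values measure the spread between arrays, which may be partly technical. In whole organs, fewer cells of a type and less RNA per cell cannot be told apart. Signals of different probe sets were not set against each other as levels.

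Growth factors that bind receptor tyrosine kinases, such as the EGF receptor, switch on MAP kinases, and among the genes induced within minutes are inhibitors that turn the same pathway down. Dusp1 removes phosphate from MAP kinases, Errfi1 (also Mig6) binds and blocks the EGF receptor, and Socs3 restrains cytokine receptors that act through JAK kinases and STAT3. Zfp36 (tristetraprolin) speeds decay of mRNAs of cytokines, Ier3 is an early response protein linked to cell survival and ERK activity, and Phlda1 is an early response protein of the pleckstrin homology-like family. Hbegf is not an inhibitor but a ligand of the EGF receptor, itself an early response gene whose product feeds forward into the pathway. In the lung, EGF receptor ligands and their brakes are known for their part in epithelial growth and repair.

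The stretches upstream of Dusp1, Errfi1 and Zfp36 are shown because these 3 genes were among those that rose after birth and their promoters held the motifs of inducible factors that were searched. Sequences are from RefSeq (GRCm38.p6), 250 bases up to the gene start on the strand of the gene, 5′ to 3′, with motif matches in capitals: chr17:26508473-26508722 (minus strand) for Dusp1, chr4:150854820-150855069 (plus strand) for Errfi1 and chr7:28379229-28379478 (minus strand) for Zfp36.
Dusp1: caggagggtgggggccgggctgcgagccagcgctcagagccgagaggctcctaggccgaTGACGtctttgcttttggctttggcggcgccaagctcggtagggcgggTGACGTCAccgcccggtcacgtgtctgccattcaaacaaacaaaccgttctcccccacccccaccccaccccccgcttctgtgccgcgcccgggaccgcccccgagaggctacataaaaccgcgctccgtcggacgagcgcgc
Errfi1: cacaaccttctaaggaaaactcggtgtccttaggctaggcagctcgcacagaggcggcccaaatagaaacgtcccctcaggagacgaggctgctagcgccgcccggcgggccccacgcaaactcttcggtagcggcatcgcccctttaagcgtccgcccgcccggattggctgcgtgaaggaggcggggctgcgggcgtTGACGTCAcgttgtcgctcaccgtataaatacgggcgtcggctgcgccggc
Zfp36: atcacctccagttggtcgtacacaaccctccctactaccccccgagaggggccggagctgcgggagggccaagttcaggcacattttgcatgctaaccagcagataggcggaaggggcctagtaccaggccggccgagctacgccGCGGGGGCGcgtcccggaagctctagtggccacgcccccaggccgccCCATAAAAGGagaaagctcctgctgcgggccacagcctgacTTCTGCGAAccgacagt
In Dusp1 and Errfi1 the capitals mark the cAMP response element TGACGTCA, 143 bases before the start of Dusp1 and 51 before that of Errfi1, and in Dusp1 a further copy of its core TGACG, at 191 bases. In Zfp36 they mark an EGR1 site (GCGNGGGCG) at 105 bases, a CArG box of serum response factor at 58 and a STAT site (TTCNNNGAA) at 17.

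Motifs were searched on both strands in 250 bases before the start. The full cAMP response element was found in 1.55% of 32851 promoters, its core TGACG, which the full element contains, in 17.8%, the STAT site in 7.02%, the EGR1 site in 4.7% and the CArG box in 1.47%. An AP-1 site (TGANTCA) was in 6.75% of promoters, a glucocorticoid response element in 0.387%, an NF-kappaB site in 7.25% and the core of the hypoxia response element (ACGTG) in 16.6%. Of the 7 genes, 5 were matched in the table, with 6 starts. The second start of Errfi1, at chr4:150853546-150853795, held none of the motifs marked by capitals. The Ier3 promoter held an NF-kappaB site at 92 bases and the Socs3 promoter a STAT site at 154 bases and an EGR1 site at 181. The hypoxia core was found 2 times upstream of Dusp1, where both strands of a single site match, and once each upstream of Errfi1 and Ier3. Such matches are a description of the letters.

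The labelled organs carried their markers. The summed signal of 2 alveolar type 2 markers was at least 21832 in every lung array and at most 273 in liver, and that of 5 hepatocyte markers was at least 82732.5 in liver. In lung this hepatocyte sum stayed between 52.9 and 469.7, except on the second F21 array of 10% oxygen. There Alb was 2160 and Apoa1 575.6, against 84.6 and 65.3 for Alb and 8.7 and 20.9 for Apoa1 on the other F21 arrays of 10% oxygen. Differences of the 7 genes that rest on that group and were called by limma with all arrays are therefore given with and without that array. Of those not called, some are. The arrays of 10% oxygen varied more among themselves (median SD of log2 signal 0.419 to 0.480 by group) than those of room air (0.289 to 0.363) and of liver (0.282 to 0.305). Their Gapdh 3′ to 5′ ratio, a sign of RNA integrity, was 1.21 to 9.40 and did not overlap with 0.734 to 1.15 in lungs of room air, so that oxygen level and this ratio cannot be told apart. Neutrophil markers moved with age in the lung: their summed signal over 8 genes was 571.9 to 768.2 at F21, 1193 to 1694 at 2 h and 1733 to 2928 at 6 h in room air, and 580.9 to 722.4, 729.4 to 1254 and 1258 to 1599 in 10% oxygen. Macrophage markers, 7 in all, summed to 846.2 to 1729.9 at F21 and 2063 to 3644 at 2 h in room air, and to 418 to 606.1 and 831.7 to 1218 in 10% oxygen. Markers of other cells also differed between F21 and 2 h without overlap. In room air the alveolar type 2 sum ranged from 47016 to 59326 at F21 but from 22276 to 24374 at 2 h, and that of 3 erythroid markers 31496.5 to 36869 and 14807 to 19291. The sum of 5 endothelial markers was 846.9 to 869.9 and 1248 to 1550, and that of 2 club cell markers 1555 to 3165 and 5283 to 8254. At 6 h in room air the type 2, erythroid and endothelial sums overlapped with F21. In 10% oxygen the sum of 5 mesenchymal markers ranged from 14663 to 19958 at F21 but from 22271 to 25975 at 2 h, and the club and erythroid sums were also higher at 2 h without overlap. The part of these cells in the results below was not tested. The signal of the spiked bioB control (3′ probe set) ranged from 226.6 to 529.4 at F21 in room air but from 75.9 to 110.7 at 2 h, so that for this step age and that signal cannot be told apart. At 6 h it was 258.8 to 501.4 and overlapped with F21. At 12 h it was 73.9 to 99.5 and at 24 h 109.8 to 188.3, both below F21. The same limit holds at these times and from 2 h to 6 h. In F21 liver it was 189.1 to 200.9, below the F21 lungs of room air, so that organ and that signal cannot be told apart there.

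After birth in room air, 2 of the 7 genes were higher at 2 h than at F21, Dusp1 and Errfi1, and none was lower. Of all probe sets tested, 1.47% were called higher there. Members and lists were chosen with earlier results of these data known, so that no such count, here or below, is a test of the set. In 10% oxygen, 3 of the 7 were higher at 2 h than at F21, Dusp1, Zfp36 and Hbegf, beside 1.37% of all probe sets. Dusp1 was the gene of the set that passed in both oxygen levels and at both 2 h and 6 h. In liver none of the 5 members tested passed, beside 0.913% of all probe sets called at 2 h and 1.84% at 6 h. At F21, limma called Phlda1 higher (2.51% of all probe sets) and Hbegf lower (4.62%) in 10% oxygen than in room air. The Gapdh ratios of these groups did not overlap. Neither call held in every alternative, and that of Hbegf was lost without any single room air array.

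**Figure D1:**
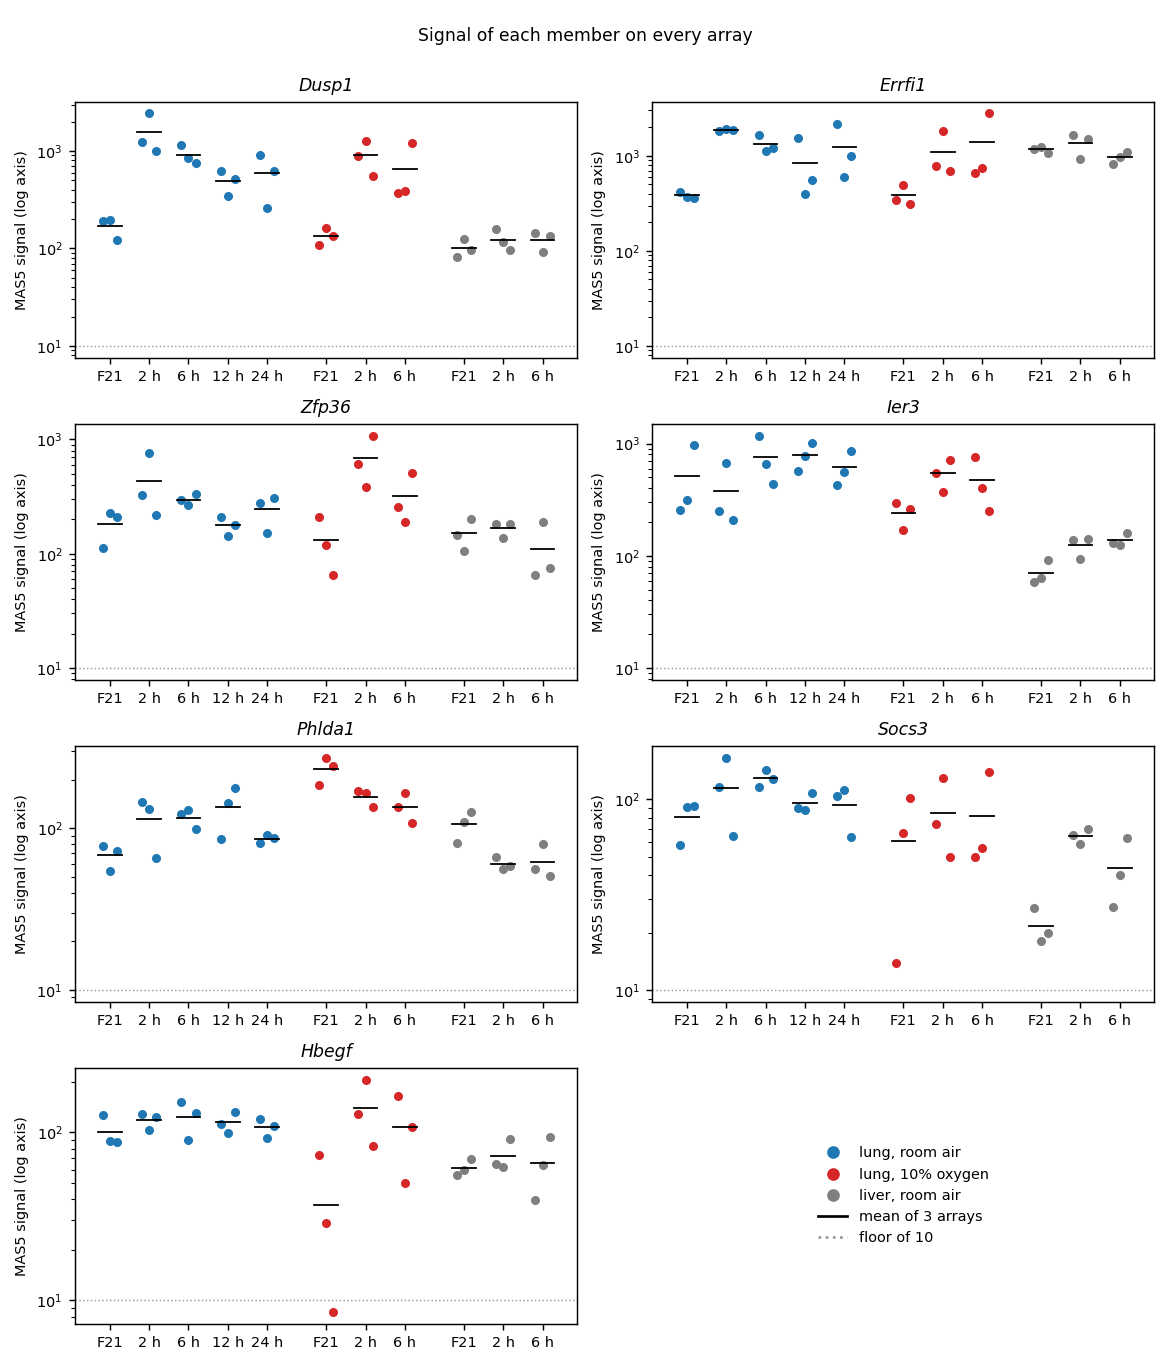
MAS5 signal (log axis) of the main probe set of each gene on all 33 arrays, by time within lung of room air, lung of 10% oxygen and liver; points are arrays, black lines means of 3 arrays and the dotted line the floor of 10. Dusp1 lay between 82.2 and 197 on all F21 and all liver arrays and between 263 and 2431 on all newborn lung arrays, and Hbegf in the F21 lungs of 10% oxygen (8.5 to 73.5) lay below all lungs of room air (87.6 to 151).

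Dusp1, the MAP kinase phosphatase, had signals of 189, 197 and 122 in the F21 lungs of room air. They were 1251, 2431 and 997 at 2 h, 1152, 853 and 752 at 6 h, 625, 342 and 517 at 12 h, and 908, 263 and 622 at 24 h. All newborn lungs of room air were above all fetal lungs, and the means were highest at 2 h. The difference from F21 was 3.13 at 2 h (standard error 0.43, 95% interval 2.23 to 4.03, 8.75-fold, adjusted p = 1.83e-04 in limma with Benjamini-Hochberg adjustment), which was the 7th smallest p of the 6931 probe sets tested. At 6 h it was 2.45 (5.46-fold, adjusted p = 0.00511 in limma). Neither passed by the methods' t-test with Benjamini-Hochberg adjustment (adjusted p = 0.101 at 2 h and 0.117 at 6 h). At the threshold of those methods, without adjustment, both did. At 12 h it was 1.54 (adjusted p = 0.0859) and at 24 h 1.68 (adjusted p = 0.0720), neither past the test in limma. At 24 h the second array, at 263, lay far below the other two, and without it the difference was 2.18 (adjusted p = 0.00981 in limma).

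In 10% oxygen, Dusp1 was 109, 163 and 135 at F21, 892, 1255 and 557 at 2 h, and 367, 387 and 1202 at 6 h. Again no newborn array overlapped with the fetal ones, and the third array at 6 h stood above the other two. The rise was 2.68 at 2 h (standard error 0.43, 6.39-fold, adjusted p = 0.00165 in limma) and 2.05 at 6 h (4.15-fold, adjusted p = 0.00538 in limma). Without the F21 array with liver markers these were 2.82 (adjusted p = 0.00291) and 2.19 (adjusted p = 0.0108). With array weights, which give outlying arrays less influence, the 6 h difference was 1.95 and no longer passed (adjusted p = 0.0545 in limma). By the methods' t-test neither passed after adjustment (adjusted p = 0.252 at 2 h and 0.370 at 6 h). At the threshold of those methods, without adjustment, the 2 h rise passed and that at 6 h did not. The 2 h change in 10% oxygen minus that in room air was -0.45 (95% interval -1.72 to 0.81, adjusted p = 0.795 in limma; -0.31 without the array with liver markers), an interval that includes 0 and differences of either sign.

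Errfi1, the inhibitor of the EGF receptor, had signals of 420, 366 and 363 in F21 lungs of room air and of 1830, 1929 and 1854 at 2 h. At later times it spread widely: 1640.5, 1121 and 1195 at 6 h, 1541, 399 and 563 at 12 h, and 2135, 593 and 1001 at 24 h. The 3 arrays at 2 h lay close together and far above the fetal ones, whereas at 12 h the arrays overlapped with F21. The rise at 2 h was 2.29 (standard error 0.49, 95% interval 1.29 to 3.30, 4.90-fold, adjusted p = 0.00847 in limma). Differences at 6, 12 and 24 h were 1.77, 0.88 and 1.50, with adjusted p of 0.0745, 0.520 and 0.174 in limma. All arrays at 6 h were above all fetal ones. Of 13 alternative settings, the difference came to pass in 4 at 6 h, 0 at 12 h and 1 at 24 h. The second probe set of Errfi1 gave 1.75 at 2 h (adjusted p = 0.0551) and 1.99 at 6 h (adjusted p = 0.0648 in limma). In the 13 alternative settings it came to pass in 6 at 2 h and in 4 at 6 h. At 24 h it was past the test without the second array (2.33, adjusted p = 0.0166). It followed the main one with r = 0.926 over the 24 lung arrays.

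In 10% oxygen, Errfi1 was 341, 497 and 310 at F21, 788, 1844 and 692 at 2 h, and 667, 746 and 2789 at 6 h. All newborn arrays were above the fetal ones, but 1 array at each time stood far above the other two. The differences of 1.42 at 2 h (adjusted p = 0.125) and 1.57 at 6 h (adjusted p = 0.0541) did not pass in limma, and without the F21 array with liver markers they were 1.62 (adjusted p = 0.132) and 1.78 (adjusted p = 0.0625). At 6 h the difference passed without the first array (1.95, adjusted p = 0.0367) or the second (1.86, adjusted p = 0.0484 in limma). The array that was high for Errfi1 at 2 h, the second, and that at 6 h, the third, were also the highest of their groups for Dusp1.

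**Figure D2:**
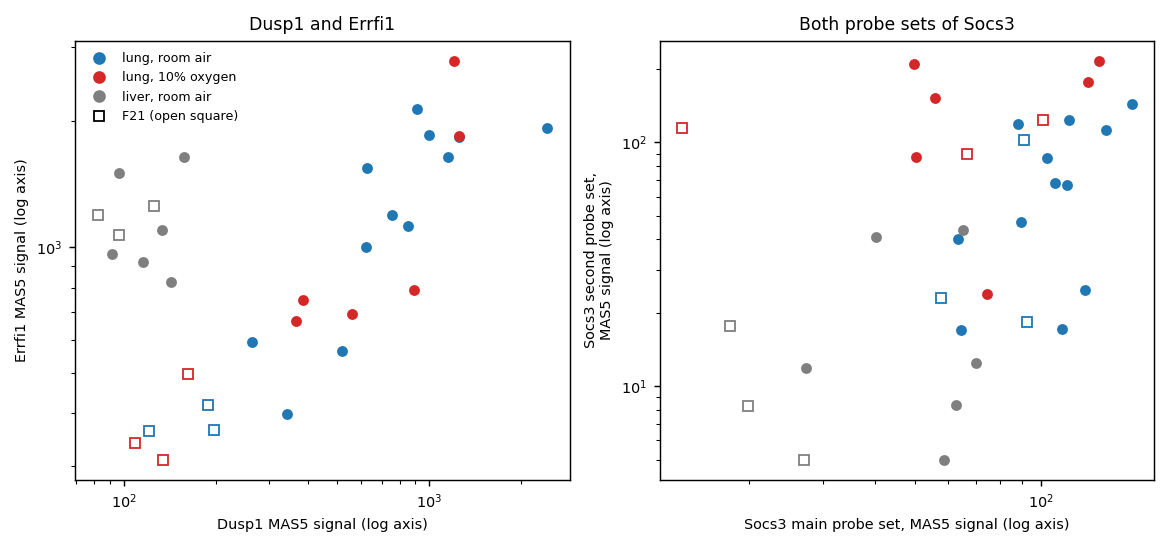
Left, signals of Dusp1 and Errfi1 (both log axes) on each of the 33 arrays; right, both probe sets of Socs3. Squares are F21 arrays. In lung, Dusp1 and Errfi1 lie along a line (r = 0.909 over 24 arrays), in liver Errfi1 is high where Dusp1 is low, and the probe sets of Socs3 show no such line (r = 0.021 over 24 lung arrays).

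Over the 24 lung arrays the log2 signals of Dusp1 and Errfi1 had r = 0.909, and the deviations from the group means, which leave out the change with time, had r = 0.826. Over the 9 liver arrays r was 0.0765. The arrays share organ, time groups and scaling, so that these values are descriptions. Among the other genes tested in lung, with at least 6240 compared, those most like Dusp1 after Errfi1 were the transcription factors Klf6 (r = 0.886) and Klf4 (r = 0.855), and those most like Errfi1 were Sgk1, a kinase of sodium transport (r = 0.912), Dusp1 and Rgcc (r = 0.872). Among all 21 pairs of members the lowest r was -0.47 and the median 0.18, so that the pair of Dusp1 and Errfi1 was at the top.

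Zfp36, the mRNA decay factor, had signals of 113, 229 and 210.3 at F21 in room air, 330, 763 and 219 at 2 h and 293, 267 and 331 at 6 h. They were 210, 143 and 179.5 at 12 h and 281, 151 and 307 at 24 h. In room air the 2 h group overlapped with F21 through the third array, and no time passed: the differences were 1.12 at 2 h (adjusted p = 0.187), 0.75 at 6 h (adjusted p = 0.579), -0.0041 at 12 h and 0.42 at 24 h in limma. With array weights the 2 h difference passed (1.10, adjusted p = 0.0267 in limma). In 10% oxygen, Zfp36 was 209, 119 and 65.8 at F21, 614, 380.1 and 1083 at 2 h, and 258, 188 and 510.3 at 6 h. At 2 h every array was above every fetal one, and the rise was 2.42 (standard error 0.46, 95% interval 1.48 to 3.37, 5.37-fold, adjusted p = 0.00497 in limma). Without the F21 array with liver markers it was 2.43 (adjusted p = 0.0142), and with fetal lungs of room air as the baseline 1.85 (adjusted p = 0.0181 in limma). At 6 h the groups overlapped and the difference was 1.31 (adjusted p = 0.0920), which became 1.72 (adjusted p = 0.0371 in limma) without the first fetal array. The 2 h rise did not pass by the methods' t-test (adjusted p = 0.423). Passing in 10% oxygen and not in room air does not show a difference between them: the 2 h change in 10% oxygen minus that in room air was 1.31 (95% interval -0.03 to 2.65, adjusted p = 0.391 in limma), and 1.32 without the array with liver markers. The probe set of Zfp36 carries the suffix of probes that may match related transcripts. The genes most like Zfp36 over the 24 lung arrays were Atf3 (r = 0.748), Fos (r = 0.734) and Junb (r = 0.730), all early response transcription factors.

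Ier3, the early response gene linked to survival, varied within groups. In room air it was 258, 316 and 972 at F21, 253, 666 and 207 at 2 h, 1181, 653 and 437 at 6 h, 569.5, 778 and 1004 at 12 h, and 424, 563 and 857 at 24 h. The third F21 array was above every 2 h array, so that the groups overlapped at all times. The difference at 2 h was -0.39 (95% interval -1.39 to 0.60, adjusted p = 0.740 in limma) and turned to 0.19 without that array. In 10% oxygen, Ier3 was 296, 169.6 and 263 at F21, 550.1, 369 and 718 at 2 h, and 762, 401 and 253 at 6 h. The 2 h arrays were all above the fetal ones, by 1.16, which did not pass (unadjusted p = 0.0245, adjusted p = 0.215 in limma), and by 0.92 without the array with liver markers (adjusted p = 0.452 in limma). Genes most like Ier3 over the 24 lung arrays were Dctn3 (r = 0.752), Alas1 (r = 0.733) and the adhesion molecule Icam1 (r = 0.718).

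Phlda1, the pleckstrin homology-like early response gene, differed between oxygen levels before birth. Its signals were 78.2, 54.9 and 72.9 in F21 lungs of room air and 185, 274 and 244 in F21 lungs of 10% oxygen. All fetal arrays of 10% oxygen were above all fetal arrays of room air, by 1.77 (standard error 0.32, 95% interval 1.11 to 2.43, 3.41-fold, adjusted p = 0.00164 in limma). By the methods' t-test it did not pass after adjustment (adjusted p = 0.113), but did at the threshold of those methods, without adjustment. Without the array with liver markers the difference was 1.65 (adjusted p = 0.00943), and with the Gapdh ratio of each array in the model it was 1.55 (adjusted p = 0.0503 in limma). The latter value rests on extrapolation, since the ratio did not overlap between the oxygen levels. The F21 array of 10% oxygen with a ratio of 1.21, the nearest to room air, had the lowest of the 3 signals, 185.

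After birth the differences of Phlda1 from F21 had opposite signs at the 2 oxygen levels. In room air it was 145, 132 and 65.2 at 2 h, 122, 129 and 98.8 at 6 h, 86.1, 145 and 179 at 12 h, and 81.5, 91.1 and 87 at 24 h, and in 10% oxygen it was 169.8, 165 and 136 at 2 h and 137, 165 and 108 at 6 h. All arrays at 6, 12 and 24 h in room air were above all fetal ones, and all newborn arrays of 10% oxygen were below their fetal ones. None of these changes passed: 0.67 at 2 h, 0.77 at 6 h, 0.94 at 12 h and 0.35 at 24 h in room air, and -0.57 at 2 h and -0.78 at 6 h in 10% oxygen, with adjusted p between 0.152 and 0.786 in limma. With array weights the differences in room air at 2 h (0.90, adjusted p = 0.0159) and 12 h (1.08, adjusted p = 0.0267 in limma) passed. In 10% oxygen they were -0.45 and -0.66 without the array with liver markers. The change at 6 h in 10% oxygen minus that in room air was -1.55 (95% interval -2.49 to -0.62, unadjusted p = 0.00211, adjusted p = 0.258 in limma), and at 2 h it was -1.23 (adjusted p = 0.251), and without the array with liver markers these were -1.43 and -1.11. With fetal lungs of room air as the baseline, newborn lungs of 10% oxygen were higher in Phlda1, by 1.20 at 2 h (adjusted p = 0.0274) and 0.99 at 6 h (adjusted p = 0.0573 in limma). The order of the 11 group means began with the F21 lungs of 10% oxygen at 234, whose range did not overlap with the next, the 2 h lungs of 10% oxygen at 157. The genes most like Phlda1 over the 24 lung arrays were Myo1d (r = 0.764), Pkm (r = 0.752) and Pelo (r = 0.740).

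Hbegf, the EGF receptor ligand, varied little in lungs of room air. Its 15 signals there lay between 87.6 and 151, with 126, 89.2 and 87.6 at F21 and 129, 103 and 123 at 2 h, and the differences from F21 were 0.24 at 2 h, 0.27 at 6 h, 0.19 at 12 h and 0.10 at 24 h. In 10% oxygen it was 73.5, 28.9 and 8.5 at F21, 129, 205 and 82.7 at 2 h, and 164, 49.9 and 107 at 6 h. The fetal arrays of 10% oxygen were all below those of room air, and the third was under the floor of 10. The difference at F21 was -1.84 (standard error 0.51, adjusted p = 0.0274 in limma), the rise to 2 h in 10% oxygen 2.23 (adjusted p = 0.0177) and that to 6 h 1.79 (adjusted p = 0.0351), though the 6 h group overlapped with F21.

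All 3 calls of Hbegf rested on the fetal group of 10% oxygen. Against F21 lungs of room air the same newborn lungs differed by 0.39 at 2 h (adjusted p = 0.720) and -0.06 at 6 h (adjusted p = 0.961 in limma). The 3 fetal arrays had Gapdh 3′ to 5′ ratios of 1.21, 6.79 and 9.40, and Hbegf signals of 73.5, 28.9 and 8.5, the lower the signal the higher the ratio. With that ratio as a covariate the difference at F21 was -0.65 (adjusted p = 0.613), an extrapolation, since the ratio did not overlap between the oxygen levels. Without the third fetal array, the values were -1.11 at F21 (adjusted p = 0.195), 1.50 at 2 h (adjusted p = 0.117) and 1.05 at 6 h (adjusted p = 0.216 in limma). Without the array with liver markers they were -1.88 (adjusted p = 0.0567), 2.26 (adjusted p = 0.0436) and 1.82 (adjusted p = 0.0694 in limma). None of the 3 passed by the methods' t-test (adjusted p = 0.553 at 2 h, 0.576 at 6 h and 0.376 at F21). The 2 h rise was also lost without the second 2 h array, at 1.90 (adjusted p = 0.0824), and the 6 h rise without the first (1.40, adjusted p = 0.157) or the third 6 h array (1.71, adjusted p = 0.0728 in limma). The difference at F21 was lost without any single one of the room air arrays, at -1.67, -1.92 and -1.94 (adjusted p = 0.122, 0.0630 and 0.0502 in limma). The genes most like Hbegf over the 24 lung arrays were Usp25 (r = 0.853), Cyb5b (r = 0.848) and Tm2d2 (r = 0.838).

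**Figure D3:**
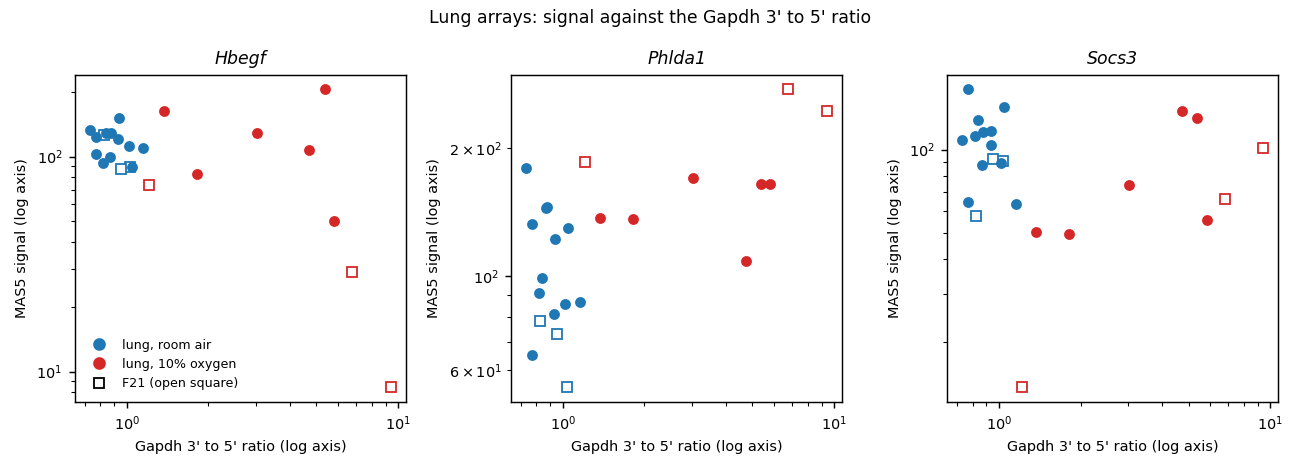
Signal (log axis) of Hbegf, Phlda1 and Socs3 on the 24 lung arrays against the Gapdh 3′ to 5′ ratio (log axis); blue, room air, red, 10% oxygen, squares, F21. The 3 F21 arrays of 10% oxygen run from a ratio of 1.21 to 9.40, with Hbegf at 73.5, 28.9 and 8.5 and Phlda1 at 185, 274 and 244, and no array of room air has a ratio above 1.15.

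Socs3, the inhibitor of cytokine receptors, could not be settled from its 2 probe sets. On the main one the lungs of room air were 57.5, 91 and 92.8 at F21, 116, 166 and 64.5 at 2 h and 117, 143 and 128 at 6 h, and those of 10% oxygen 13.8, 66.4 and 101 at F21, 74.2, 130.1 and 49.6 at 2 h and 50.1, 55.8 and 138 at 6 h. In room air the 6 h arrays were all above the fetal ones, and in 10% oxygen the groups overlapped at both times. The changes were 0.45 at 2 h and 0.71 at 6 h in room air and 0.79 and 0.69 in 10% oxygen, with adjusted p between 0.480 and 0.742 in limma. At F21 the main probe set was lower in 10% oxygen by a difference of -0.80 and the second higher by 1.62, neither past the test (adjusted p = 0.422 and 0.260 in limma). Without the array with liver markers the main probe set gave 1.06 at 2 h, 0.96 at 6 h and -1.07 at F21, and the second 1.76 at F21, none past the test. With the Gapdh ratio of each array in the model, the fitted differences of the main probe set between 10% oxygen and room air were -2.38 at F21 (adjusted p = 0.0243), -1.86 at 2 h (adjusted p = 0.0249) and -2.15 at 6 h (adjusted p = 0.0222 in limma). That ratio did not overlap between the oxygen levels, so that these values rest on extrapolation and do not show a lower level. The main probe set carries the suffix of probes shared within a gene family, and the second fell under the floor on 4 of the 33 arrays. Socs3, by its main probe set, was the single member called in these 3 comparisons with that covariate. The genes most like the main probe set over the 24 lung arrays were Me1 (r = 0.792), Peli1 (r = 0.771) and Plet1 (r = 0.761).

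Counted over the set, 2 of 7 genes were called higher at 2 h in room air, where 1.47% of all probe sets tested were, and 1 of 7 at 6 h, where 0.822% were. As the set was chosen with earlier results of these data known, such counts beside the shares are descriptions. At 6 h the arrays of 5 of the 7 genes were all above those of F21, against 9.81% of all probe sets. At 12 h (1.34% called in either direction) and at 24 h (0.577%) limma called 0 of the 7, with 2 at an unadjusted p under 0.05 at each time (11.9% of all at 12 h and 10.2% at 24 h), and 0 by the methods' t-test at p under 0.01. The median difference over the 7 genes was 0.67, 0.75, 0.83 and 0.42 at 2, 6, 12 and 24 h, beside 0.02, -0.04, -0.02 and -0.04 over all probe sets tested. From 2 h to 6 h limma called 0 of the 7 (3.46% of all), with 1, Ier3, at an unadjusted p under 0.05 (16.7% of all) and 0 by the methods' t-test.

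In 10% oxygen, 3 of 7 genes were called higher at 2 h (1.37% of all probe sets) and 2 of 7 at 6 h (2.99%), and the arrays of 5 of the 7 genes were all above those of F21 at 2 h (8.27% of all). The medians over the 7 genes were 1.42 and 1.31, beside -0.02 at both times over all. Without the array with liver markers the counts were 3 and 1. In the fit of the lungs of 10% oxygen alone, chosen after the data were seen, the 6 h count was 1. At F21, 1 of 7 was higher in 10% oxygen (2.51% of all) and 1 lower (4.62%).

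Comparing the oxygen levels at the same time after birth, limma called 0 of 7 at 2 h, where 16.8% of all probe sets were called in either direction, and 0 of 7 at 6 h, where 5.80% were. None was at an unadjusted p under 0.05 in limma (31.0% of all at 2 h and 22.4% at 6 h), and none passed by the methods' t-test at either time. At 2 h the bioB signal was 370.1 to 409.7 in 10% oxygen and 75.9 to 110.7 in room air, so that oxygen level and that signal cannot be told apart. For Dusp1 the difference at 2 h was -0.76 (95% interval -1.66 to 0.14) and for Errfi1 -0.90 (95% interval -1.91 to 0.11), intervals that hold a level in 10% oxygen up to 1 log2 unit or more lower. For Zfp36 it was 0.73 (95% interval -0.22 to 1.68). The change at 2 h differed between oxygen levels for 0 of 7 genes in limma (0.476% of all), with 3 at an unadjusted p under 0.05 (13.1% of all), Hbegf at 1.99, Ier3 at 1.55 and Phlda1 at -1.23. Without the array with liver markers these were 2.02, 1.31 and -1.11, with unadjusted p of 0.0157, 0.0835 and 0.0311 in limma. Hbegf passed without the first F21 array of 10% oxygen (2.69, adjusted p = 0.0456 in limma). At 6 h it was 0 of 7 (0.0144% of all), with 2, Phlda1 at -1.55 and Hbegf at 1.51, at an unadjusted p under 0.05 (8.58% of all), which were -1.43 and 1.54 without the array with liver markers. These comparisons share the F21 arrays of each oxygen level with those above.

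**Figure D4:**
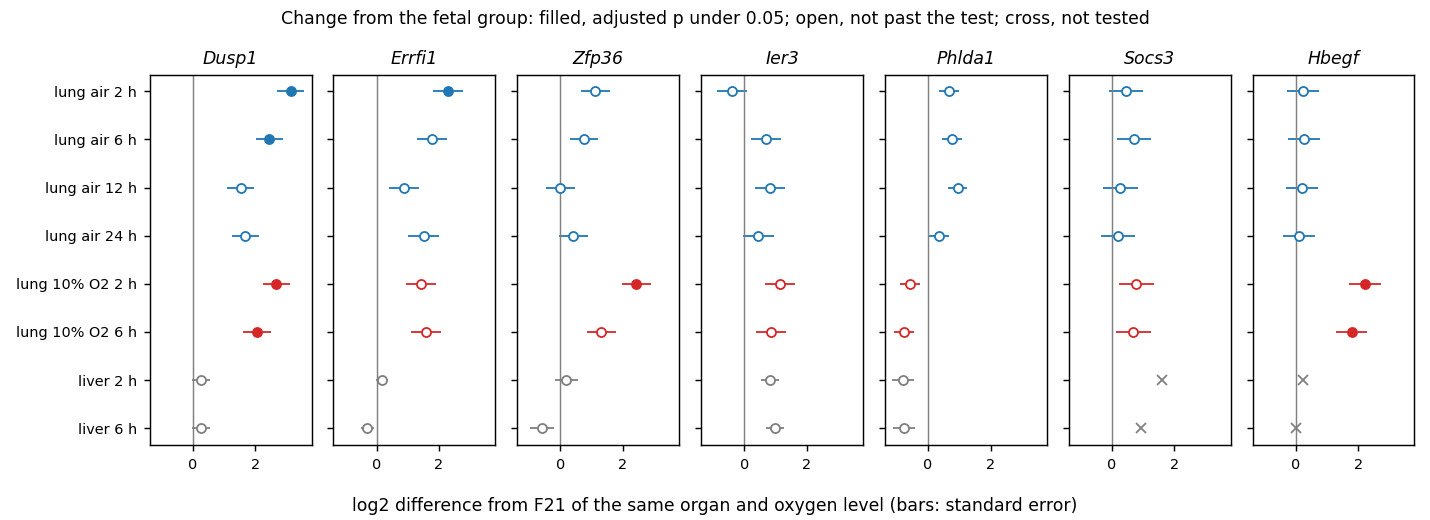
Log2 difference from the F21 group of the same organ and oxygen level, with standard errors, for the main probe set of each gene; filled circles have an adjusted p under 0.05 in limma, open circles do not and crosses were not tested. Filled circles stand at Dusp1 (2 h and 6 h at both oxygen levels), Errfi1 (2 h in room air), Zfp36 (2 h in 10% oxygen) and Hbegf (both times in 10% oxygen).

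Livers of room air give the same times in an organ that does not fill with air. There Dusp1 was 82.2, 126 and 96.9 at F21, 157, 116 and 96.8 at 2 h and 143, 91.3 and 134 at 6 h, so that its groups overlapped throughout. The difference at 2 h was 0.27 (95% interval -0.35 to 0.89, adjusted p = 0.773 in limma). Errfi1 was already high in fetal liver, at 1192, 1250.4 and 1069, and was 1640.2, 921 and 1503 at 2 h and 823, 961 and 1097 at 6 h, with differences of 0.17 and -0.29. Zfp36 was 146, 106 and 200.3 at F21, 182, 137 and 182 at 2 h and 65, 188 and 74.3 at 6 h, and its groups overlapped.

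Ier3 was low in fetal liver, at 58.2, 63.3 and 91.1, and 139, 94.3 and 142 at 2 h and 131, 124 and 161 at 6 h. All newborn livers were above the fetal ones, by 0.83 at 2 h (adjusted p = 0.242) and 0.99 at 6 h (adjusted p = 0.111), which did not pass in limma. Phlda1 was 81.5, 109.7 and 127 at F21, 66.5, 55.9 and 58.5 at 2 h and 55.7, 79.9 and 51.1 at 6 h, all newborn arrays lying below the fetal ones, by -0.79 (adjusted p = 0.392) and -0.77 (adjusted p = 0.361). Socs3 and Hbegf were below the filter on low signals and not tested. The main probe set of Socs3 was 27, 18 and 19.8 at F21 and 64.9, 58.6 and 69.9 at 2 h without overlap, whereas its second was 5 to 43.6 over the 9 livers. Of the 5 genes tested, limma called 0 at 2 h (0.913% of all) and 0 at 6 h (1.84%), with 2 at each time at an unadjusted p under 0.05, Ier3 and Phlda1 (12.1% of all at 2 h and 13.4% at 6 h), and 0 by the methods' t-test.

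Lung and liver differed in fetal levels of Ier3 and Errfi1. Ier3 was higher in F21 lung than in F21 liver by 2.63 (6.18-fold, adjusted p = 2.51e-05), and Errfi1 was lower by a difference of -1.61 (adjusted p = 0.00616 in limma), 3.06-fold. Thus of the 5 genes that also reached the filter in liver, 1 was higher and 1 lower in lung, beside 28.0% of all probe sets called in either direction, and the median over all probe sets was 0.14 higher in lung. Socs3 and Hbegf entered this fit through their lung arrays alone and were not counted. The F21 signals of Socs3 were 57.5 to 92.8 in lung and 18 to 27 in liver, and those of Hbegf 87.6 to 126 and 55.9 to 69.4. The Gapdh 3′ to 5′ ratio was 1.30 to 1.86 in liver, without overlap with the lungs of room air, and with it in the model the differences were 2.39 for Ier3 (adjusted p = 1.29e-04) and -1.37 for Errfi1 (adjusted p = 0.0220 in limma). By the methods' t-test Ier3 did not pass (adjusted p = 0.0656). The second probe set of Errfi1 gave -0.81 (adjusted p = 0.233 in limma).

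The 2 h change in lung minus that in liver was 2.86 for Dusp1 (standard error 0.58, 95% interval 1.68 to 4.03, adjusted p = 0.0107 in limma). Dusp1 was the 1 gene called of the 5 that also reached the filter in liver, beside 0.236% of all probe sets called higher. Socs3 and Hbegf entered this fit through their lung arrays alone and were not counted. The bioB signal fell from F21 to 2 h in lung without overlap, but was 189.1 to 200.9 and 163.2 to 218.8 in liver. Organ and that signal cannot be told apart in this difference of changes. For Errfi1 it was 2.12 (95% interval 0.84 to 3.41, adjusted p = 0.107) and for Phlda1 1.46 (adjusted p = 0.128), which became 1.82 (adjusted p = 0.0481 in limma) without the third 2 h lung array and 1.71 (adjusted p = 0.0120 in limma) with array weights. With array weights that of Errfi1 was 2.16 (adjusted p = 0.00944 in limma). At 6 h, limma called 0 of the same 5 genes (0.196% of all), with 4 at an unadjusted p under 0.05 (8.67% of all), Dusp1 at 2.18 (adjusted p = 0.121), Errfi1 at 2.06, Phlda1 at 1.55 and Zfp36 at 1.34. The methods' t-test has no form for a difference of changes and was not run there.

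Over the 11 groups, the mean signal of Dusp1 was highest in 2 h lungs of room air at 1560, then 6 h lungs of room air at 919 and 2 h lungs of 10% oxygen at 901, and lowest in fetal liver at 102. In that order each group overlapped with its neighbour, except between the 12 h lungs of room air at 495 and the F21 lungs of room air at 169. For Errfi1 no pair of neighbours was apart, from 1871 in 2 h lungs of room air down to 383 in both fetal lung groups. For Zfp36 the order began with 2 h lungs of 10% oxygen at 692 and again no neighbours were apart. For Ier3 the 3 liver groups came last, apart from the fetal lungs of 10% oxygen at 243.

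Few other genes of the same pathway passed. At 2 h, 4.24% of all probe sets were called in either direction in room air, 2.65% in 10% oxygen and 0.913% in liver. A count of 0 in lists this short is near those shares. Of 6 other ligands of the EGF receptor, 4 were on the array and 0 reached the filter on low signals. Of 5 tested genes for EGF receptors and docking proteins, 0 passed at 2 h in room air, 10% oxygen or liver. Egfr, the receptor itself and named here after its values were seen, differed from F21 by 1.32 at 2 h in room air (adjusted p = 0.419) and by -1.18 in 10% oxygen (adjusted p = 0.469 in limma). Of 8 genes of the MAP kinase cascade, 0 passed at 2 h at either oxygen level. At 6 h in 10% oxygen 2 of the 8 rose (2.99% of all probe sets), Map2k3 by 0.78 and Map2k4 by 1.71, upstream kinases of p38 and JNK, and both were lower at F21 in 10% oxygen than in room air, by -0.66 and -2.18, comparisons that share the F21 lungs of 10% oxygen and were singled out after their values were seen. Both still passed at 6 h without the array with liver markers (0.75 and 1.72), and at F21 Map2k4 did (-2.19) and Map2k3 did not (-0.63, adjusted p = 0.0786 in limma). Of 9 other feedback inhibitors of kinases, 0 passed at 2 h in lung at either oxygen level (median 0.17 and 0.09). In this list 1 of 9 passed at 6 h in 10% oxygen, Socs2, an inhibitor of growth hormone signaling, at 1.08 (adjusted p = 0.0105 in limma). Socs2 passed at both 2 h (1.12) and 6 h (1.40) without the array with liver markers.

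Some other early response genes rose at 2 h, where 1.47% of all probe sets did in room air and 1.37% in 10% oxygen. These lists too were chosen with earlier results of these data known. Of 15 that are not transcription factors, 5 rose in room air and 1 in 10% oxygen, with medians of 0.55 and 0.50, and 0 of 13 in liver. Those with the smallest p in room air were Sgk1 at 2.87, Btg1, an antiproliferative gene, at 1.30, Ccn2, a matricellular protein, at 1.35 and Zfp36l1, a relative of Zfp36, at 1.25, and the gene that rose in 10% oxygen was Ccn1, also a matricellular protein, at 2.18. Of 17 early response transcription factors, 5 rose in room air and 4 in 10% oxygen, with medians of 1.07 and 1.03, and 0 of 11 in liver. Atf3 rose at both oxygen levels, by 3.04 and 2.80. In room air Klf4 rose by 2.47, Nr4a1 by 3.66 and Klf6 by 1.77, and in 10% oxygen Fos rose by 3.75, Klf2 by 3.68 and Egr1 by 2.87. For these genes and those above, passing at 1 oxygen level and not at the other does not show a difference between them. The counts in 10% oxygen depended on the F21 array with liver markers. Without it 0 of 15 and 1 of 17 rose at 2 h, with medians of 0.45 and 0.96. Klf2 still passed, at 4.91 (adjusted p = 0.00798), whereas Fos at 3.88, Atf3 at 2.66, Egr1 at 2.34 and Ccn1 at 2.10 did not (adjusted p = 0.0536, 0.0886, 0.0798 and 0.108 in limma). In that fit Klf4 at 1.40, Klf6 at 1.48 and Nr4a1 at 0.72 did not pass either (adjusted p = 0.169, 0.155 and 0.752 in limma). Of 9 genes of IL-6 family and STAT3 signaling, 0 passed at 2 h at either oxygen level. Of 9 mRNAs known to be bound by Zfp36, 2 reached the filter and 0 passed.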

How the data were processed

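Total RNA of whole lung or liver was hybridized to MGU74Av2 chips, 1 chip per sample. The authors computed each signal with MAS5 at a target intensity of 100, and the deposited signal values were used as given, on a linear scale. Of 12488 probe sets, 66 controls were removed. Genes were named through GEO's platform annotation, in which 10855 probe sets had 1 symbol, 396 several and 1237 none. A floor of 10 was applied before the log2 transformation. Tests were limited to probe sets whose signal was in the top 40% on at least 3 arrays of the fit, which all 9 probe sets of the set passed in lung and those of 5 genes in liver. The 24 lung arrays were fitted together by group with limma 3.58.1 in R 4.3.3 (lmFit and eBayes with a trend), the 9 liver arrays likewise, and all 33 for comparisons of organs. P-values were adjusted by the Benjamini-Hochberg method over all probe sets of the fit, with a threshold of 0.05, and intervals are 95%. The methods' t-test ran on the same log2 values with their threshold of 0.01. Depth does not apply to arrays, whose number limits the precision.

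Each main probe set is the brighter of its gene, all probe sets of the 7 genes are named, and of other lists up to 4 genes called at 2 h with the smallest p. Members and lists were chosen with earlier results of these data known. Alternatives changed the floor, the filter, normalization, arrays in the fit, covariates and weights, or left out each array. In simulated data for 2 h in room air, 26% of changes of 1 log2 unit and 72% of 2 were recovered.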

Additional observations from a re-analysis of the deposited data

Results flagged for a closer look

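In 3 cases the change after birth differed between groups under the same contrast, by the test of the difference or by all arrays moving opposite ways. The 2 h change of Dusp1 in lung minus that in liver was 2.86 and passed the test (adjusted p = 0.0107 in limma), with the limit of the bioB signal given above. The 6 h change of Phlda1 in 10% oxygen minus that in room air was -1.55, where all 6 h arrays lay below F21 in 10% oxygen and all above it in room air, and the difference did not pass (adjusted p = 0.258 in limma). The 6 h change of Phlda1 in lung minus that in liver was 1.55, with all 6 h lungs above and all 6 h livers below their fetal arrays, and it did not pass (adjusted p = 0.166 in limma). The fetal groups are shared between these comparisons of Phlda1.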

How the results depend on the processing

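Of the values recomputed under another setting, 1584 kept their direction and side of the threshold, 26 changed direction, 43 came to pass and 25 no longer passed. The same sample numbers did not pair the arrays (median r of deviations 0.00236 over 84 lung pairs of one number and 0.00299 over 168 others), and a block for the number changed no call, with 2 genes called at 2 h in room air and 3 in 10% oxygen. Only 3 arrays per group, and a self-test that recovered 26% of changes of 1 log2 unit, limit what a missing call says. The t-test was not run for differences of changes. For the counts below, the cause was not tested.

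With only the groups compared in the fit, 2 genes were called at 6 h and 1 at 12 h in room air, 1 at 6 h in 10% oxygen, 1 between oxygen levels at F21, and 2 at 2 h and 2 at 6 h for lung against liver changes. With array weights, 4 were called at 2 h and 2 each at 6, 12 and 24 h in room air, 0 at 6 h in 10% oxygen, 1 between 2 h and 6 h, and 3 at 2 h and 1 at 6 h for lung against liver changes. Quantile normalization gave 2 for the 2 h change of lung against liver, and the top 30% filter 1 at 24 h. The Gapdh covariate, whose values did not overlap between oxygen levels, gave 1 between them at F21, 1 at 2 h and 1 at 6 h. The methods' t-test at its own threshold gave 2 at 6 h in room air, 1 at 2 h and 0 at 6 h in 10% oxygen and 1 at F21, and after Benjamini-Hochberg adjustment 1 at 2 h and 0 at 6 h in room air, 0 at 2 h and 0 at 6 h in 10% oxygen and 0 at F21. The F21 lungs of room air as baseline gave 1 at 6 h in 10% oxygen. Lungs of a single oxygen level, chosen after the data were seen, gave 2 at 6 h, 1 at 12 h and 1 at 24 h in room air and 1 at 6 h in 10% oxygen.

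None of the differences that turned sign had passed, except Hbegf at 6 h in 10% oxygen, -0.057 against F21 lungs of room air. With that baseline, in 10% oxygen Phlda1 was 1.20, Socs3 -0.0067 and its second probe set 1.45 at 2 h, and Ier3 -0.013, Phlda1 0.99 and Socs3 -0.11 at 6 h. Quantile normalization gave Errfi1 0.016 between oxygen levels at F21 and 0.023 at 6 h, 0.0069 for the 6 h change between oxygen levels and -0.0016 for its second probe set from 2 h to 6 h, Zfp36 0.075 at 6 h between oxygen levels, and for the 2 h change of lung against liver -0.036 for the second probe set of Socs3 and -0.035 for Hbegf. The Gapdh covariate gave Zfp36 0.17 at F21 and 0.61 at 6 h and Hbegf 0.67 at 6 h between oxygen levels, Socs3 0.23 for the 6 h change between oxygen levels, the second probe set of Errfi1 -0.21 at 6 h in liver and Hbegf -0.082 for the 2 h change of lung against liver. Array weights gave Zfp36 0.036 at 12 h, the second probe set of Socs3 -0.0022 at 24 h, Phlda1 -0.072 and Hbegf -0.11 from 2 h to 6 h, Errfi1 0.0081 at F21 between oxygen levels and Ier3 -0.022 for the 6 h change between oxygen levels.

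Without 1 array at a time, the genes called numbered 0 to 1 at 24 h in room air, 2 to 3 at 2 h and 1 to 3 at 6 h in 10% oxygen, 1 to 2 between oxygen levels at F21, 0 to 1 for the 2 h change between oxygen levels and 1 to 2 for the 2 h change of lung against liver.
The differences that turned sign in some of these fits had these ranges. At 2 h in room air, Ier3 lay between -0.91 and 0.19 and the second probe set of Socs3 between -0.062 and 1.48. At 12 h in room air, Zfp36 lay between -0.32 and 0.19. At 24 h in room air, Socs3 lay between -0.023 and 0.46 and the second probe set of Socs3 between -0.42 and 0.92. At 2 h in 10% oxygen, Socs3 lay between -0.069 and 1.37 and the second probe set of Socs3 between -0.74 and 0.84. At 6 h in 10% oxygen, Socs3 lay between -0.17 and 1.27. From 2 h to 6 h, the second probe set of Errfi1 lay between -0.024 and 0.41, Zfp36 between -0.76 and 0.14, Phlda1 between -0.25 and 0.32, Socs3 between -0.10 and 0.58, the second probe set of Socs3 between -0.48 and 1.11 and Hbegf between -0.13 and 0.25. Between oxygen levels at F21, Errfi1 lay between -0.23 and 0.11, the second probe set of Errfi1 between -0.40 and 0.13 and Socs3 between -1.38 and 0.062. Between them at 2 h, the second probe set of Socs3 lay between -0.030 and 1.82 and Hbegf between -0.19 and 0.47. Between them at 6 h, Errfi1 lay between -0.88 and 0.15, Zfp36 between -0.42 and 0.30 and Hbegf between -0.72 and 0.14. For the 2 h change between them, Socs3 lay between -0.52 and 0.92 and the second probe set of Socs3 between -1.65 and 0.20. For the 6 h change between them, Errfi1 lay between -0.85 and 0.18, Ier3 between -0.44 and 0.54 and Socs3 between -0.88 and 0.56. At 2 h in liver, Zfp36 lay between -0.045 and 0.42. At 6 h in liver, the second probe set of Errfi1 lay between -0.14 and 0.34. For the 2 h change of lung against liver, the second probe set of Socs3 lay between -0.60 and 0.94 and Hbegf between -0.078 and 0.20. For the 6 h change of lung against liver, Ier3 lay between -0.67 and 0.30, Socs3 between -0.53 and 0.073 and Hbegf between -0.054 and 0.56.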

Other observations

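Within groups, the arrays that held the highest or lowest signal differed from gene to gene, with a median within-group r of 0.157 over the 21 pairs of members. Counts of 5 or more of the 7 genes on 1 of the 3 arrays were found in 4 of 11 groups. At 2 h in room air the second array held the highest signal for 5 genes and the third the lowest for 5. The lowest signal of 5 genes fell on the second array at 12 h in room air and on the third at 2 h in 10% oxygen, and that of 6 genes on the second liver array at 2 h. No test was run on these counts.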
